A study of Mus musculus with 8 samples.

Results

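For the piRNA pathway 10 genes were listed, and 9 of them were measured in testis of Ctcfl mutant and control mice: the PIWI genes Piwil1, Piwil2 and Piwil4, the RNA helicase genes Ddx4, Mov10l1 and Tdrd9, the gene Mael, and the tudor domain genes Tdrd1 and Tdrd7. They were chosen by name from the probe set annotation of the array, and together they had 11 of its 45101 probe sets and made up 9 of the 22004 genes named there. Tdrd6, a tudor gene of the chromatoid body, had no probe set under its symbol or its Entrez ID. Piwil4 and Tdrd7 had 2 probe sets each. For each of them the main probe set was the one without a suffix for cross-hybridisation, then the one of highest mean level.

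PIWI proteins are Argonaute proteins of the germ line that carry short guide RNAs, the piRNAs, which are cut from long single-stranded precursors and direct the silencing of transposons. Tudor proteins bind methylated arginines of PIWI proteins and gather the pathway's enzymes in the intermitochondrial cement of spermatocytes and later in the chromatoid body of round spermatids. In mouse testis one wave of piRNAs is made in fetal and early postnatal germ cells, and a larger one in pachytene spermatocytes under the transcription factor A-MYB.

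The arrays were Affymetrix Mouse430_2 arrays of testis RNA at postnatal day 23, with 1 array per sample. Of the samples, 5 were labelled wildtype (replicates 1, 2, 4, 6 and 7) and 3 were labelled Ctcfl mutant (replicates 3, 5 and 8). The study asked which testis transcripts depend on CTCFL, also called BORIS, a germ cell paralog of the zinc finger protein CTCF. Its text describes the mutants as homozygous for a germline deletion allele of Ctcfl that also carries GFP and the controls as heterozygous littermates, whereas the labels call the latter wildtype, as is done below. The labels name no treatment and no strain, and nothing in them says that each sample came from a separate animal, so p-values measure only the spread between these samples. The level of Ctcfl was not analysed here and gave no check of the genotypes. The values are log2 levels, and a difference is always mutant minus wildtype.

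The spermatocyte and spermatid marker lists matched the labelled tissue. All 11 spermatocyte genes with a probe set lay between the 73.5 and 99.98 percentiles of mean level over all probe sets. Among them were Sycp3 of the synaptonemal complex and Ldhc of germ cell glycolysis. The 12 spermatid genes lay between the 76.0 and 96.0 percentiles. Other testis lists reached lower by main probe set. Their lowest genes lay at the 30.1 percentile for spermatogonia, 54.3 for Sertoli, 33.0 for Leydig and 16.2 for peritubular cells. Array medians lay between 6.40 and 6.45, and no pair of arrays held identical values. On the spermatid list and a list of 7 fat genes, 6 of the 8 arrays lay together. The remaining ones, wildtype replicate 7 and mutant replicate 8, stood apart. Their mean levels of the spermatid list were 11.04 and 10.67, against at most 9.36 on the others, and those of the fat list were 6.94 and 6.92, against at most 5.91. The difference of each piRNA pathway gene described below, by its main probe set, is therefore also given without these 2 arrays. Mutant replicate 3, which remains among the 6, was the highest array on the spermatogonia, Sertoli, Leydig and peritubular lists. It was the lowest on the spermatocyte, spermatid and fat lists.

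Promoter windows were available for 8 of the 9 genes in RefSeq (GRCm38.p6), each running from 250 bases before to 50 after an annotated start. Piwil2 had no entry. Windows of Ddx4, Piwil1 and Mael are printed here on the gene's own strand because these genes had the largest differences of the helicases, of the PIWI genes and of the others, a choice made after the values were seen. They cover chr13:112652261-112652560 (minus strand) for Ddx4, chr5:128735996-128736295 (plus strand) for Piwil1 and chr1:166238695-166238994 (minus strand) for Mael. Capitals mark matches, on either strand, to a core of MYB sites (CAACNG), a core of CTCF sites (AGGNGGC) or a full cAMP response element (TGACGTCA), where N is any base.
Ddx4: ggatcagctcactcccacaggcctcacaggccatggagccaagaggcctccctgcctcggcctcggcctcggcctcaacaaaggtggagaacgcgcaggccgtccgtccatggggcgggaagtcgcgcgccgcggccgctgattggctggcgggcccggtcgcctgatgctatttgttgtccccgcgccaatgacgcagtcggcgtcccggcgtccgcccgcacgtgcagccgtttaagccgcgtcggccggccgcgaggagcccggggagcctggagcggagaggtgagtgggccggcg
Piwil1: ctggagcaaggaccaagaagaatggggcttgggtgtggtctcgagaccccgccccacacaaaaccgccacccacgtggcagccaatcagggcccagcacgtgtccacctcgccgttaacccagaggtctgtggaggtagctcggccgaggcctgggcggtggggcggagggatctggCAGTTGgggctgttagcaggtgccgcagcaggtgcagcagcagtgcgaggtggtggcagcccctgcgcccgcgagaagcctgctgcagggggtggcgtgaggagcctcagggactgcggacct
Mael: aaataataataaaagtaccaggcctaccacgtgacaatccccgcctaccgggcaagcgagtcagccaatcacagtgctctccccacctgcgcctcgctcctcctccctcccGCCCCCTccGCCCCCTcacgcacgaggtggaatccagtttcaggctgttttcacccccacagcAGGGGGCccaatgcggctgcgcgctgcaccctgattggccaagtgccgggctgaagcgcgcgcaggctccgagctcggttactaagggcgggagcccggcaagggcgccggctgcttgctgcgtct
The Ddx4 window held none of these letters and had a GC content of 72.0%. The Piwil1 window held 1 MYB core, at position 178 counted from its 5′ end. The Mael window held 3 CTCF cores, at positions 112, 121 and 175. No matches overlapped each other. A gene was counted if any of its windows held a match. The 8 genes had 13 windows, and all 27025 genes had 32851, so the 8 had more windows per gene. By gene, the MYB core stood in windows of 3 of the 8 genes (Piwil1, Piwil4 and Tdrd7), where 38.3% of 27025 genes with a window held it. The CTCF core also stood in windows of 3 genes (Mael, Tdrd1 and Tdrd7), against 31.8% of all genes, and the full cAMP response element in none, against 2.03%. These are matches of letters and not sites of binding.

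Of the PIWI genes, Piwil1 had the largest difference, Piwil2 was the one whose groups did not overlap, and Piwil4 was near the floor of the array. Piwil1 encodes MIWI, which carries pachytene piRNAs in late spermatocytes and round spermatids. Its probe set 1460340_at gave levels of 11.43, 11.42, 11.47, 11.50 and 11.69 on wildtype replicates 1, 2, 4, 6 and 7, and of 11.25, 11.28 and 11.46 on mutant replicates 3, 5 and 8. Mutant replicates 3 and 5 lay below all wildtype arrays, while mutant replicate 8 lay within their range, and in each genotype the highest array was the one with the high spermatid list. The means were 11.50 ± 0.11 (SD, n = 5) and 11.33 ± 0.11 (SD, n = 3). The difference was -0.17 (SE 0.084, 95% interval -0.36 to 0.019), with an unadjusted limma p of 0.0724 and an exact two-sided permutation p of 0.107. It was -0.19 among the 6 arrays that lay together, and -0.23 between mutant replicate 8 and wildtype replicate 7. Without mutant replicate 8 the unadjusted limma p was 0.0276 and the adjusted limma p 0.83, at a difference of -0.23. That was the lowest unadjusted p of the alternatives run for this gene. Leaving out any other array gave an unadjusted limma p of 0.0673 to 0.218, the last without mutant replicate 3 at a difference of -0.13. The unadjusted limma p was 0.0331 without both arrays that stood apart and 0.122 with repeated quantile normalisation.

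Piwil2 encodes MILI, which takes part in both waves of piRNA production from spermatogonia to round spermatids. Probe set 1449170_at gave 11.35, 11.26, 11.14, 11.12 and 11.12 on the wildtype arrays, in the same order, and 11.08, 11.06 and 11.09 on the mutant arrays. All 3 mutant arrays were below all 5 wildtype arrays, by a gap of 0.031 between the nearest values, and wildtype replicates 1 and 2 were the high ones. The difference was -0.12 (SE 0.073, 95% interval -0.28 to 0.041), with an unadjusted limma p of 0.127. The exact two-sided permutation p was 0.0357, the smallest that 5 against 3 arrays allow. Without both arrays that stood apart the difference was -0.15, and between those arrays it was -0.031.

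Piwil4 encodes MIWI2, a nuclear PIWI protein known chiefly from fetal germ cells. Its level by probe set 1439716_at was between 4.14 and 4.28 on all 8 arrays, at the 14.1 percentile of all probe sets, below the array medians. The means were 4.23 ± 0.069 (SD, n = 5) and 4.23 ± 0.035 (SD, n = 3), and the difference was 0.0022 (SE 0.065, 95% interval -0.14 to 0.15), and 0.011 without both arrays that stood apart. The other probe set, 1447564_x_at, was lower still, at the 2.78 percentile, and gave -0.059 (SE 0.070), and -0.038 without both arrays. The values of both genotypes overlapped on either probe set, and no direction is given for this gene.

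**Figure D1:**
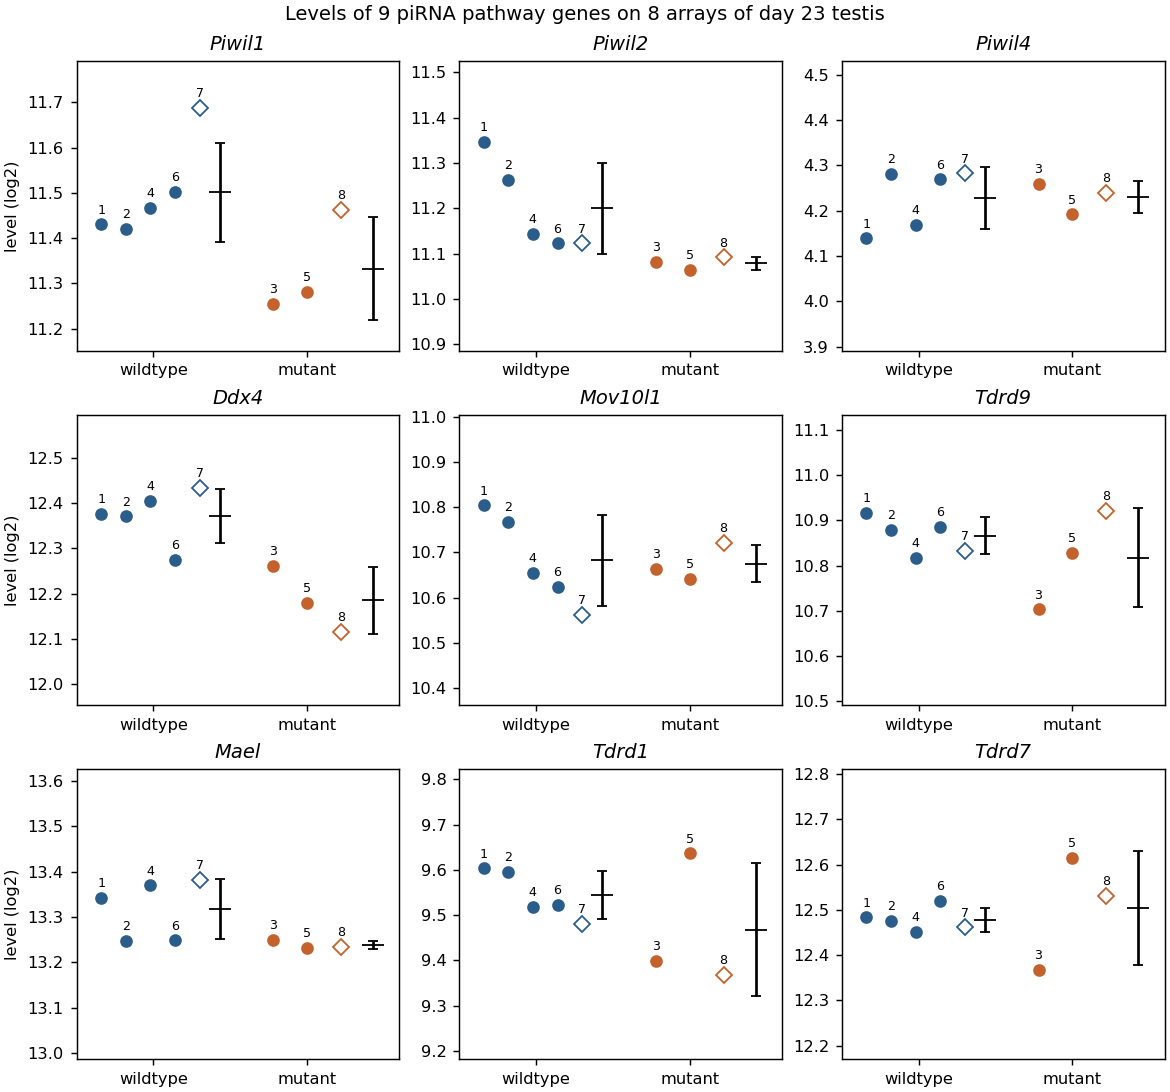
Levels of the 9 genes (log2, vertical axis, all panels of equal span) on 5 wildtype and 3 mutant arrays, 1 point per array with its replicate number; open diamonds are wildtype replicate 7 and mutant replicate 8, and bars are the mean ± SD. Mutant values lie below all wildtype values for Piwil2 and Ddx4, and the groups overlap for the other 7 genes.

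Among the helicases, Ddx4 was lower on every mutant array than on every wildtype array, while Mov10l1 and Tdrd9 overlapped. Ddx4 is the mouse vasa gene, whose product is found in germ cells from fetal life to round spermatids and is widely used to mark them. Probe set 1427242_at gave 12.38, 12.37, 12.41, 12.27 and 12.43 on wildtype replicates 1, 2, 4, 6 and 7, and 12.26, 12.18 and 12.11 on mutant replicates 3, 5 and 8. The lowest wildtype array and the highest mutant array were 0.013 apart. With means of 12.37 ± 0.060 (SD, n = 5) and 12.19 ± 0.074 (SD, n = 3), the difference was -0.19 (SE 0.066, 95% interval -0.34 to -0.039), a change of -12.2% on the linear scale. The unadjusted limma p was 0.0185 and the adjusted limma p 1.0, and the exact two-sided permutation p was 0.0357. Among the 6 arrays that lay together the difference was -0.14, at an unadjusted limma p of 0.119. Without mutant replicate 8 alone it was -0.15, at an unadjusted limma p of 0.0741, so that this array, the lowest of the 8, decided on which side of 0.05 the gene fell. Between mutant replicate 8 and wildtype replicate 7 the difference was -0.32.

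Mov10l1, a helicase that binds piRNA precursors and starts their processing, gave levels of 10.80, 10.77, 10.65, 10.62 and 10.56 on the wildtype arrays and 10.66, 10.64 and 10.72 on the mutant arrays (probe set 1419340_at). All 3 mutant values lay inside the wildtype range. The difference was -0.0070 (SE 0.074, 95% interval -0.17 to 0.16), at an unadjusted limma p of 0.926, and -0.060 without both arrays that stood apart. Its sign changed on leaving out 1 array, so no direction is given.

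Tdrd9, which joins a helicase to a tudor domain and acts with MIWI2, gave 10.92, 10.88, 10.82, 10.89 and 10.83 on the wildtype arrays and 10.70, 10.83 and 10.92 on the mutant arrays (probe set 1453357_at). Mutant replicate 3 was the lowest of all arrays and mutant replicate 8 the highest. The mutant SD was 0.11 and the wildtype SD 0.041, and the difference of -0.048 (SE 0.068, 95% interval -0.20 to 0.10) was within the mutant spread. Without both arrays that stood apart it was -0.11. Without mutant replicate 3 it was 0.0088.

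Mael, a protein of the intermitochondrial cement needed for transposon silencing, had the highest percentile of level of the 9 genes, 99.7. Probe set 1436837_at gave 13.34, 13.25, 13.37, 13.25 and 13.38 on the wildtype arrays and 13.25, 13.23 and 13.23 on the mutant arrays. Wildtype replicates 2 and 6 lay with the mutant arrays and the other 3 wildtype arrays lay above them. The difference was -0.080 (SE 0.063, 95% interval -0.22 to 0.061), with an exact two-sided permutation p of 0.107. It was -0.061 without both arrays that stood apart and -0.15 between them.

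For Tdrd1 and for the main probe set of Tdrd7, the mutant SD (0.15 and 0.13) was larger than the wildtype SD (0.053 and 0.027). Tdrd1, which binds MILI in the intermitochondrial cement, gave levels of 9.60, 9.60, 9.52, 9.52 and 9.48 on the wildtype arrays and 9.40, 9.64 and 9.37 on the mutant arrays (probe set 1421513_at). Mutant replicate 5 was the highest of all 8 arrays and the other 2 mutant arrays were the lowest. The difference was -0.076 (SE 0.077, 95% interval -0.25 to 0.097), -0.16 without mutant replicate 5, -0.026 without mutant replicate 8 and -0.042 without both arrays that stood apart. Tdrd7, a component of the chromatoid body, gave 12.48, 12.48, 12.45, 12.52 and 12.46 on the wildtype arrays and 12.37, 12.61 and 12.53 on the mutant arrays (probe set 1426716_at). Here too mutant replicate 5 was the highest array, and mutant replicate 3 was the lowest. The difference was 0.026 (SE 0.070, 95% interval -0.13 to 0.18). It was 0.094 without mutant replicate 3, -0.030 without mutant replicate 5 and 0.0081 without both arrays that stood apart. The other probe set of Tdrd7, 1459216_at, at the 19.8 percentile of level, gave -0.14 (SE 0.12), and -0.21 without both arrays. Its mutant SD of 0.12 was smaller than its wildtype SD of 0.21, and no direction is given.

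Counted together, 7 of the 9 genes had a lower mean in mutant testis and 2 a higher one, with a median difference of -0.076. Leaving out 1 array gave 6 to 8 genes lower and medians of -0.082 to -0.042, the last without mutant replicate 3. Over all probe sets the median was 0.0032 and 48.5% were lower, and over the 22550 probe sets above the median level the median was 0.0057 and 47.1% were lower. None of the 11 probe sets passed a limma adjusted p of 0.05, where 0% of all 45101 probe sets did. At an unadjusted limma p of 0.05 there was 1 of the 11, that of Ddx4 (9.09%), where 3.47% of all probe sets passed, 796 higher and 768 lower. Groups without overlap were found for 2 of the 11 (18.2%), Ddx4 and Piwil2, both lower in mutant, where 2.70% of all probe sets had none. These counts are of 1 or 2 probe sets and describe the genes listed.

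**Figure D2:**
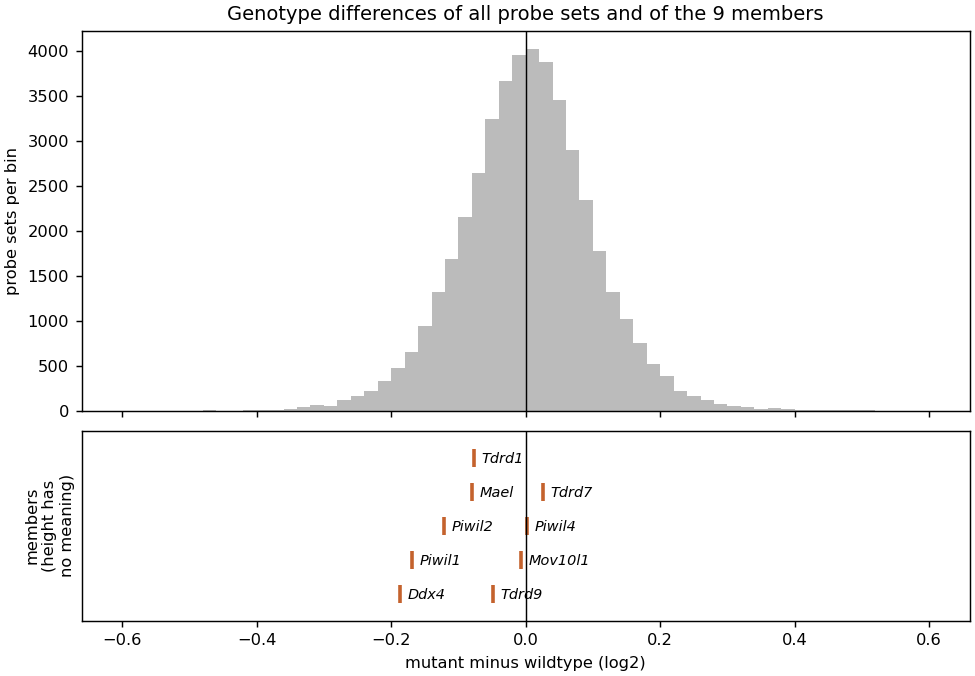
Top, number of probe sets (vertical axis) by mutant minus wildtype difference (log2, horizontal axis, bins of 0.02, with 33 probe sets outside ±0.6 not drawn); bottom, the 9 genes on the same axis, where height has no meaning. The genes lie between -0.19 and 0.026. The bins that hold Ddx4 and Piwil1 have 475 and 661 probe sets, against 4019 in the fullest bin.

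The mean level over the 9 genes was 10.72, 10.70, 10.67, 10.66 and 10.69 on wildtype replicates 1, 2, 4, 6 and 7, and 10.58, 10.63 and 10.63 on mutant replicates 3, 5 and 8. All mutant arrays were below all wildtype arrays, with mutant replicate 3 the lowest. How often means of 9 genes separate in this way was not examined. The difference was -0.073, and -0.080 without both arrays that stood apart. By gene it was -0.19 for Ddx4, -0.17 for Piwil1 and -0.12 for Piwil2, but 0.0022 for Piwil4, -0.0070 for Mov10l1 and 0.026 for Tdrd7. Like the mean of the 9 genes, the spermatocyte list was lower on all mutant arrays. Its highest array was wildtype replicate 7 and not wildtype replicate 1. Its mean level lay between 10.86 and 11.00 on the wildtype arrays and between 10.76 and 10.85 on the mutant arrays. The difference of this list was -0.096, with 8 of 11 genes lower, and -0.081 without both arrays that stood apart. Over all its probe sets 8 of 13 were lower, with a median difference of -0.053. Of its 11 main probe sets 2 passed an unadjusted limma p of 0.05 and 0 an adjusted one. Sycp1, which forms the transverse filaments of the synaptonemal complex, differed by -0.25 without overlap (unadjusted limma p 0.0110). Meioc, a regulator of meiotic prophase, differed by -0.27 (unadjusted limma p 0.0129). Without both arrays that stood apart these 2 genes differed by -0.18 and -0.18. Dmc1, H2afx and Ldhc were higher in mutant testis, by 0.17, 0.027 and 0.016. By main probe set, 8 of 10 spermatogonia genes were higher in mutant testis (7.93 to 8.14 on wildtype and 8.05 to 8.28 on mutant arrays). The same held for 9 of 10 Sertoli cell genes (9.28 to 9.35 and 9.33 to 9.54). For Leydig cells it was 5 of 6 (8.85 to 9.19 and 8.90 to 9.40). For peritubular cells it was 4 of 5 (7.42 to 7.65 and 7.48 to 7.72). Over all probe sets of these 4 lists, in the same order, 12 of 18, 17 of 18, 10 of 11 and 5 of 9 were higher. The list differences were 0.15, 0.11, 0.15 and 0.046. Without both arrays that stood apart they were 0.19, 0.16, 0.30 and 0.069. All 12 spermatid genes had a lower mean in mutant testis, with list means of 8.80 to 11.04 on the wildtype and 8.60 to 10.67 on the mutant arrays. The upper ends of these ranges came from the 2 arrays that stood apart. The difference of the spermatid list was -0.15, and -0.41 without both. The part of these cells in the differences of the piRNA genes was not tested. In whole testis, fewer cells of a type and less RNA per cell cannot be told apart.

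**Figure D3:**
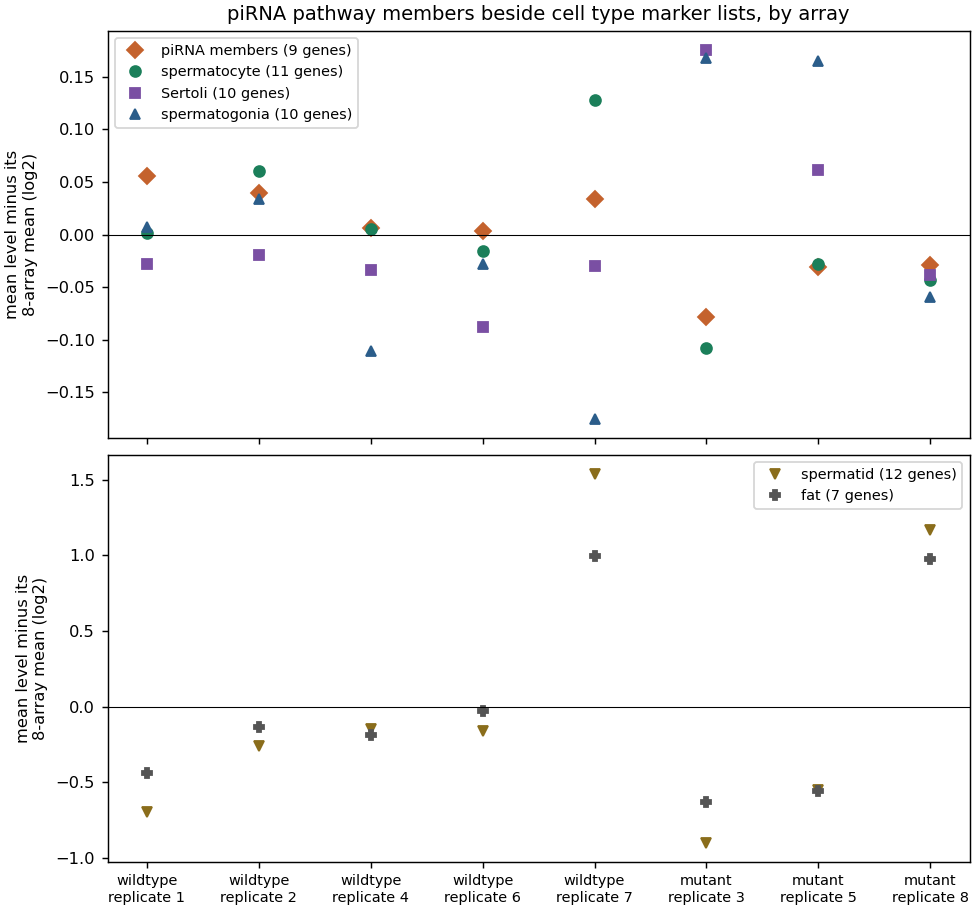
Mean level of the 9 piRNA genes and of 5 marker lists on each array, minus the list's mean over the 8 arrays (log2, vertical axis; arrays on the horizontal axis). The piRNA genes and the spermatocyte list are below 0 on all 3 mutant arrays, and the spermatid and fat lists are far above 0 on wildtype replicate 7 and mutant replicate 8; the panels differ in scale.

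The 9 genes were also compared on the 2 arrays that stood apart. Over the 8 arrays the range of a gene was 0.14 to 0.43, with a median of 0.25, against a median of 0.38 over all probe sets. Piwil1 had the widest range. It was higher by 0.23 on wildtype replicate 7 and by 0.19 on mutant replicate 8 than on the other arrays of their genotype. The main probe set of Piwil4 was higher on both, by 0.068 and 0.013, while its other probe set was lower on both, with departures of -0.087 and -0.11. Tdrd1 was lower on both, by -0.079 and -0.15 as differences, and by main probe set the other 6 genes departed in opposite directions, among them Mov10l1, by -0.15 and 0.069.

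**Figure D4:**
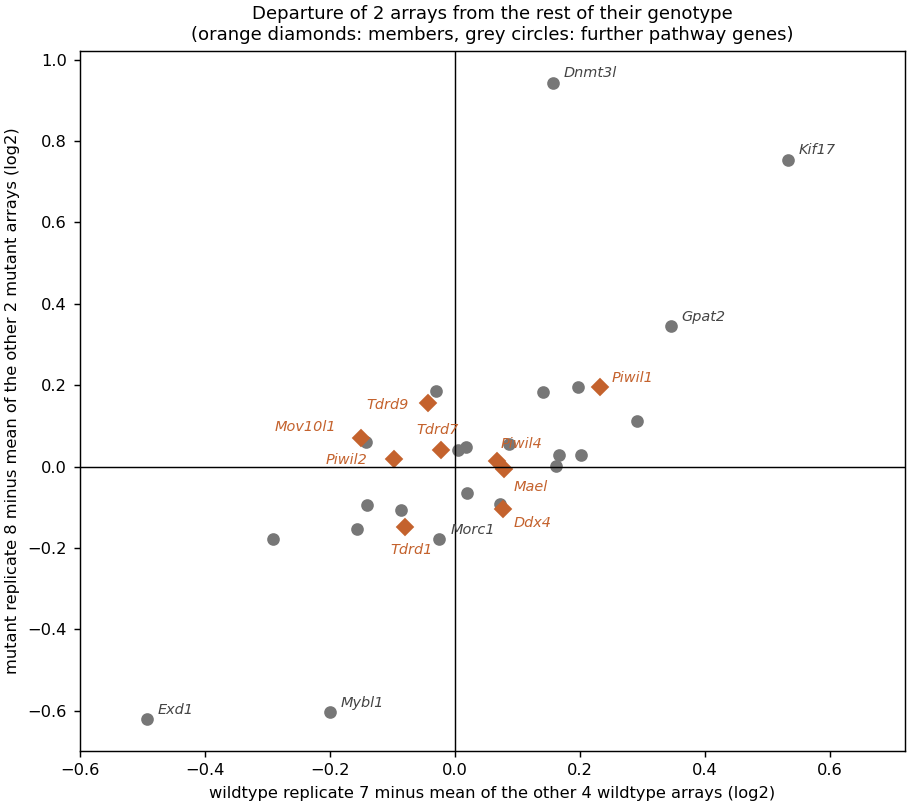
Level on wildtype replicate 7 minus the mean of the other 4 wildtype arrays (horizontal axis, log2) against level on mutant replicate 8 minus the mean of the other 2 mutant arrays (vertical axis, log2), for the 9 genes (orange diamonds) and 23 further pathway genes (grey circles). The 9 genes lie within ±0.25 on both axes, while Kif17, Dnmt3l, Exd1 and Mybl1 depart by more than 0.5 on at least 1 of the arrays.

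A wider list of the pathway held 25 further genes, of which 23 had a probe set, 37 in all (Spocd1 and Btbd18 had none). They comprise the nuclease Pld6 and its mitochondrial partners Gpat2 and Asz1, further tudor genes (Tdrd5, Tdrd12, Tdrkh, Rnf17 and Stk31), the piRNA trimmer Pnldc1, the methyltransferase Henmt1, which protects piRNA ends, the transcription factor gene Mybl1, and factors of silencing in the nucleus. By main probe set 15 were lower in mutant testis and 8 higher, with a median of -0.037. No probe set passed a limma adjusted p of 0.05. At an unadjusted p of 0.05 there were 2 of the 37 (5.41%), where 3.47% of all probe sets passed. None of the 23 main probe sets had groups without overlap, where 2.70% of all probe sets had none.

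Those 2 probe sets belonged to Morc1 and Stk31. Morc1, an ATPase gene of transposon silencing, had means of 6.88 ± 0.15 (SD, n = 5) and 6.66 ± 0.10 (SD, n = 3), with 6.97, 7.04, 6.65, 6.89 and 6.86 on the wildtype arrays and 6.73, 6.71 and 6.54 on the mutant arrays. Wildtype replicate 4 lay among the mutant arrays. Its difference was -0.22 (SE 0.094), at an unadjusted limma p of 0.0433 and an exact two-sided permutation p of 0.107. It was -0.16 without mutant replicate 8 and -0.16 without both arrays that stood apart, at unadjusted limma p of 0.161 and 0.171. For Stk31, a tudor protein with a kinase domain, probe set 1454138_a_at differed by -0.32 (SE 0.10, unadjusted limma p 0.0112) and the main one by -0.075 (SE 0.099). Without both arrays that stood apart they differed by -0.23 and -0.030. The 2 disagreed in size, and this gene was singled out after its values were seen. Rnf17, a tudor gene needed by spermatids and likewise picked after its values were seen, had the next lowest p of the main probe sets, with a difference of -0.15 (SE 0.078) at an unadjusted limma p of 0.0847, and -0.12 without both arrays. Its other 3 probe sets gave smaller differences of -0.096, -0.063 and -0.014, at unadjusted limma p of 0.242, 0.649 and 0.871.

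**Figure D5:**
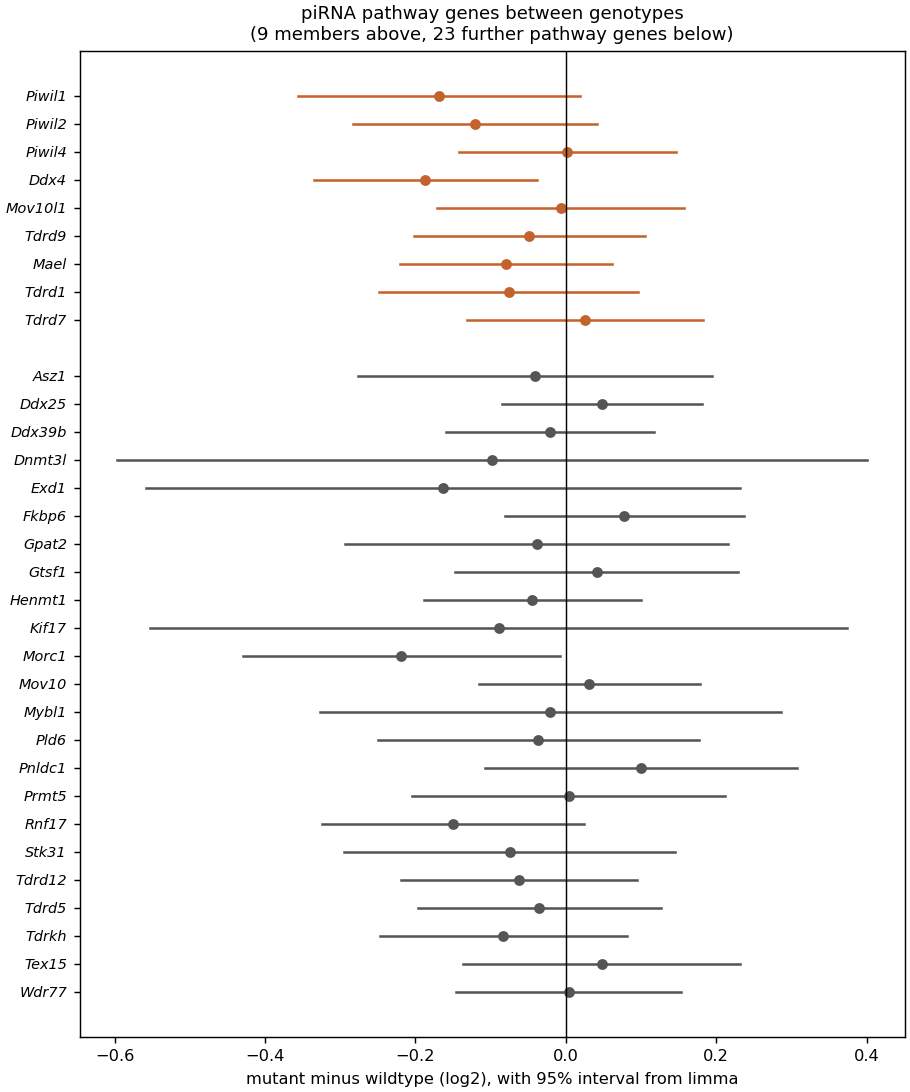
Mutant minus wildtype difference (log2, horizontal axis) of the 9 genes (orange) and 23 further pathway genes (grey), 1 main probe set per gene, with points at the estimate and bars for its 95% interval from limma. The intervals of Ddx4 and Morc1 leave out 0 before adjustment, and all others include it.

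The further genes with the widest range over the 8 arrays were Dnmt3l, Kif17, Exd1, Mybl1, Morc1 and Gpat2. Dnmt3l, a cofactor of de novo DNA methylation, ranged over 1.24. Its mutant values were 5.93, 6.53 and 7.17 and its wildtype values lay between 6.39 and 6.77, so the lowest and the highest array were both mutant. Its difference was -0.098 (SE 0.22) with all arrays, 0.21 without mutant replicate 3, -0.41 without mutant replicate 8 and -0.38 without both arrays that stood apart, the last 2 at unadjusted limma p of 0.0267 and 0.0394. Kif17, a kinesin found in the chromatoid body, was higher on wildtype replicate 7 and mutant replicate 8, by 0.53 and 0.75, as was Gpat2, by 0.35 on each. Their differences between the genotypes were -0.089 (SE 0.21) and -0.038 (SE 0.11) with all arrays, and -0.23 and -0.084 without both arrays that stood apart. The sign of both changed on leaving out 1 array, so no direction is given.

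Exd1 and Mybl1 departed the other way. Exd1, a partner of the tudor protein TDRD12, was lower on wildtype replicate 7 and mutant replicate 8, with departures of -0.49 and -0.62, and differed by -0.16 (SE 0.18) between the genotypes. Without these 2 arrays the difference was -0.055, and without mutant replicate 8 alone it was 0.044, so no direction is given. Mybl1, which encodes A-MYB, gave levels of 5.71, 5.63, 5.61, 5.76 and 5.48 on the wildtype arrays and 5.80, 5.84 and 5.22 on the mutant arrays. Mutant replicates 3 and 5 were the highest arrays and mutant replicate 8 the lowest. Its difference was -0.021 (SE 0.14), and 0.14 without both arrays that stood apart, so no direction is given. Of the 23 further genes, 12 were higher on both of these arrays than on the others of their genotype, 7 were lower on both and 4 departed in opposite directions.

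Lastly, the genes whose levels followed most closely those of Piwil1, Piwil2 and Ddx4, the members of widest range, were sought over the 8 arrays among the 11926 candidates by Pearson's r, given as a description, since 8 arrays of 2 genotypes were ranked over many genes. For Ddx4 they were Meioc (r = 0.985), Hoxd3os1 (0.985) and Erbin (0.956), and over the 6 arrays that lay together their r was 0.964, 0.968 and 0.899. Meioc is also a gene of the spermatocyte list given above. Piwil1 was followed by 4921525O09Rik (0.968), 5230400M06Rik (0.964) and 4933404O12Rik (0.959), with r of at least 0.946 over the 6 arrays. For Piwil2 they were Lum (0.976), Ttc27 (0.963) and Cbfa2t2 (0.944), with r of 0.987, 0.959 and 0.950 over the 6 arrays. No gene was among the closest for more than 1 of these.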

How the data were processed

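The deposited table held, as the authors made it with RMA background correction and quantile normalisation, a log2 level per probe set for each of 8 arrays. It was used as deposited, without a filter. Columns and tables of the authors' own comparison (fold changes, p-values) were not used. Genes were named by the table's symbols and by Entrez IDs through a RefSeq gene table (GRCm38.p6), and the build of the array annotation is not given in the sources used here. The two-sided limma test (lmFit, eBayes; limma 3.58.1 under R 4.3.3) ran over all 45101 probe sets, adjusted by Benjamini-Hochberg, and was tested on simulated data. Exact permutation tests ran over the 56 arrangements of the arrays. The Python version was 3.11.15 (scipy 1.17.1, pandas 2.3.3, matplotlib 3.10.9, numpy 2.4.6). Named beside the members were further pathway genes past an unadjusted p of 0.05 and those of widest range. The members and lists were chosen with earlier results of these data known. For the 3 members of widest range, the 3 genes closest in pattern were named, among main probe sets at or above the median level. Marker genes Hormad1, Nanos2, Nanos3, Hsd3b6, Insl3 and Plin1 had no probe set. Alternatives were leaving out each array or both that stood apart, centring, repeated quantile normalisation, probe sets above the median level, an intensity trend with a robust prior, array weights, a one-way comparison without shared variance and other probe sets. The number of arrays limits the precision.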

Additional observations from a re-analysis of the deposited data

Results flagged for a closer look

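For 17 measures of the piRNA pathway it was asked whether the highest or lowest of the 5 wildtype arrays lay far from the rest, and 1 did. Gpat2, a mitochondrial partner of MILI, reached 10.287 on wildtype replicate 7, while the next highest wildtype level was 10.001. The gap was 0.714 of the whole range, where the critical value for 5 arrays is 0.71. Chance alone singles out about 1 in 20 such measures. The group of 3 mutant arrays was too small for this examination.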

How the results depend on the processing

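No paired analysis was possible because no replicate number occurs in both genotypes. Under all 15 alternatives, 0 of the probe sets, of the 9 genes and of the further pathway genes passed a limma adjusted p of 0.05. The lowest adjusted value was 0.761 for the 9 genes and 0.759 for the further ones. At an unadjusted p of 0.05 the count over all probe sets went from 1564 to 2956 without both arrays that stood apart and to 707 above the median level, where fewer were tested, and was 1220 to 2649 leaving out 1 array, the last without mutant replicate 8. Among the 11 probe sets of the 9 genes it was 2 with the intensity trend and with array weights, and 1 to 2 leaving out 1 array (2 without wildtype replicate 1). Among the further genes it was 1 with the intensity trend, with array weights and with the one-way comparison, and 1 to 2 leaving out 1 array.

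Piwil1 (-0.23 to -0.12), Piwil2 (-0.15 to -0.084), Ddx4 (-0.23 to -0.14), Mael (-0.097 to -0.061), Tdrd1 (-0.16 to -0.026) and Morc1 (-0.28 to -0.16) kept their direction under all alternatives run. Piwil4 reversed to -0.0020 with centred arrays, -0.0067 with array weights and -0.059 on its other probe set, and Tdrd7 to -0.14 on its other probe set. Mybl1 reversed to 0.14 without both arrays and 0.064 with array weights. Leaving out 1 array gave -0.020 to 0.021 for Piwil4, -0.030 to 0.094 for Tdrd7, -0.10 to 0.0088 for Tdrd9, -0.037 to 0.023 for Mov10l1, -0.41 to 0.21 for Dnmt3l, -0.34 to 0.11 for Kif17, -0.33 to 0.044 for Exd1, -0.13 to 0.18 for Mybl1 and -0.15 to 0.031 for Gpat2. The cause was not tested. The number of arrays limits the precision. The 95% limma intervals of the main probe sets of the 9 genes together spanned -0.36 to 0.18, and those of all 11 probe sets -0.41 to 0.18.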
